A study of Mus musculus with 18 samples.

Results

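The genes described here are those named for proteins of the mitochondrial ribosome, and membership rests on the symbol alone. They were taken as all probe sets whose platform annotation gives exactly 1 gene symbol, starting with Mrpl or Mrps and followed by a digit. The rule found 156 probe sets for 76 genes among the 18193 genes with a symbol on the array. Each gene was read through its probe set with the highest mean over the 18 arrays. All 76 passed the filter on low signals that left 13072 genes for testing. Whole brains of 8-week-old mice on the C57BL/6 strain were hybridised to Affymetrix mouse expression arrays, which read each transcript through sets of short probes near its 3' end. The groups were ERalphaKO, a knockout of estrogen receptor alpha (gene Esr1), ERbetaKO, a knockout of estrogen receptor beta (gene Esr2), and wild type (WT), each with 3 female and 3 male arrays. The labels describe the knockouts no further and do not state whether the arrays of a group came from different animals, so the p-values reflect only the spread among these arrays, which may be technical. No treatment is named.

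The mitochondrial ribosome translates the few messenger RNAs made from the mitochondrial genome, which encode core subunits of the respiratory chain and the ATP synthase. Its RNA comes from mitochondrial DNA, but every one of its proteins is encoded in the nucleus, made in the cytosol and imported. Mrpl proteins belong to the large subunit, which joins amino acids and feeds the new chain into the exit tunnel, and most Mrps proteins to the small subunit, which reads the messenger. Some descend from bacterial ribosomal proteins and others are specific to mitochondria. Neurons depend heavily on the respiratory chain that this ribosome helps to build.

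The targeted genes went partly against the labels. Esr2, read by 1 probe set, had a lowest, median and highest signal of 160.4, 242.6 and 406.6 in ERbetaKO arrays, of 18.2, 25.6 and 78.2 in ERalphaKO arrays, and of 19.8, 25.4 and 50.8 in WT arrays. It was thus higher in every library labelled ERbetaKO than in every WT library. Esr1 had signals of 86.8, 138.0 and 144.8 in ERalphaKO arrays, 171.3, 194.7 and 231.3 in ERbetaKO arrays, and 93.3, 147.1 and 185.3 in WT arrays, which overlapped between ERalphaKO and WT. The position of these probes relative to the deleted parts was not given. Both knockout groups are therefore named by their label (ERalphaKO-labelled, ERbetaKO-labelled), and all directions given for them rest on it. The arrays also differed in the tissue they held. The Purkinje cell gene Pcp2 ranged over the 18 arrays between 116.6 and 10790.3 and was under 500 on 2 ERalphaKO-labelled, 3 ERbetaKO-labelled and 2 WT arrays. The summed signal of 5 neuronal markers was 30665 to 41947 in ERalphaKO-labelled, 38527 to 54604 in ERbetaKO-labelled and 41332 to 54397 in WT arrays, so neuronal RNA was present on every array but lower on ERalphaKO-labelled ones, with overlap only at the edge. Of the 5 neuronal genes 0 were called by limma in ERalphaKO-labelled brains against WT, 4 had an unadjusted p under 0.05, and the median log2 difference was -0.34. Of all 13072 genes tested, 3044 had an unadjusted p under 0.05 in that comparison, and their median was -0.029 over all genes. The part of these tissue and marker differences in those of the members was not tested. In whole brain, fewer cells of a type and less RNA per cell cannot be told apart.

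In ERalphaKO-labelled brains the family kept close to its WT level. Mrpl42 was higher and Mrpl11, Mrpl34 and Mrpl46 were lower at a limma adjusted p under 0.05, so 4 of 76 members (5.26%) were called, where 6.70% of all genes tested were called (3.07% higher and 3.63% lower). The other 72 did not pass. The median log2 difference was -0.034 over the members and -0.029 over all genes tested, and 29 members were positive. Every member's 95% interval lay within 1.5-fold of WT, which held for 85.6% of all genes tested. Through the probe sets used, the largest fall was that of Mrpl46 (log2 -0.35) and the largest rise that of Mrpl42 (log2 0.32).

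In ERbetaKO-labelled brains 5 members fell and none rose. Mrpl4, Mrpl39, Mrpl45, Mrpl46 and Mrps34 were lower, which is 6.58% of the family, against 7.50% of all genes tested. The share of genes called lower was 4.58% over all genes, and the share called higher was 2.91%. The median log2 difference was -0.047 over the members and 0.0053 over all genes, and 29 members were positive. Intervals of 75 members lay within 1.5-fold of WT, as did those of 83.1% of all genes tested. Mrpl46 was the exception, with a log2 difference of -0.46 and an interval of -0.61 to -0.31. This comparison and the one with ERalphaKO-labelled brains share the WT arrays, so likeness between the 2 is not independent. When each array was scaled to a common median instead of a trimmed mean, the median of all genes moved to -0.12 and that of the members to -0.17. Then 13 members were called lower and none higher, while over all genes 134 were called higher and 1734 lower.

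Set directly against each other, the knockout-labelled groups differed in 10 members (13.2%), where 15.4% of all genes were called. In ERalphaKO-labelled brains Mrpl4, Mrpl39, Mrpl40, Mrpl42, Mrpl45, Mrpl54 and Mrps6 were higher, and Mrpl11, Mrpl20 and Mrpl48 were lower, than in ERbetaKO-labelled brains. The share of all genes was 6.27% called higher and 9.11% called lower. The median log2 difference was 0.027 over the members and -0.020 over all genes. With median scaling, 15 members were called higher and none lower, where the all-gene calls were 1867 higher and 558 lower and the all-gene median was 0.088. In all, 13 members were called in at least 1 of the genotype comparisons and 63 in none. The share of all genes called in at least 1 of them was not counted, so this number cannot be judged against it.

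**Figure D1:**
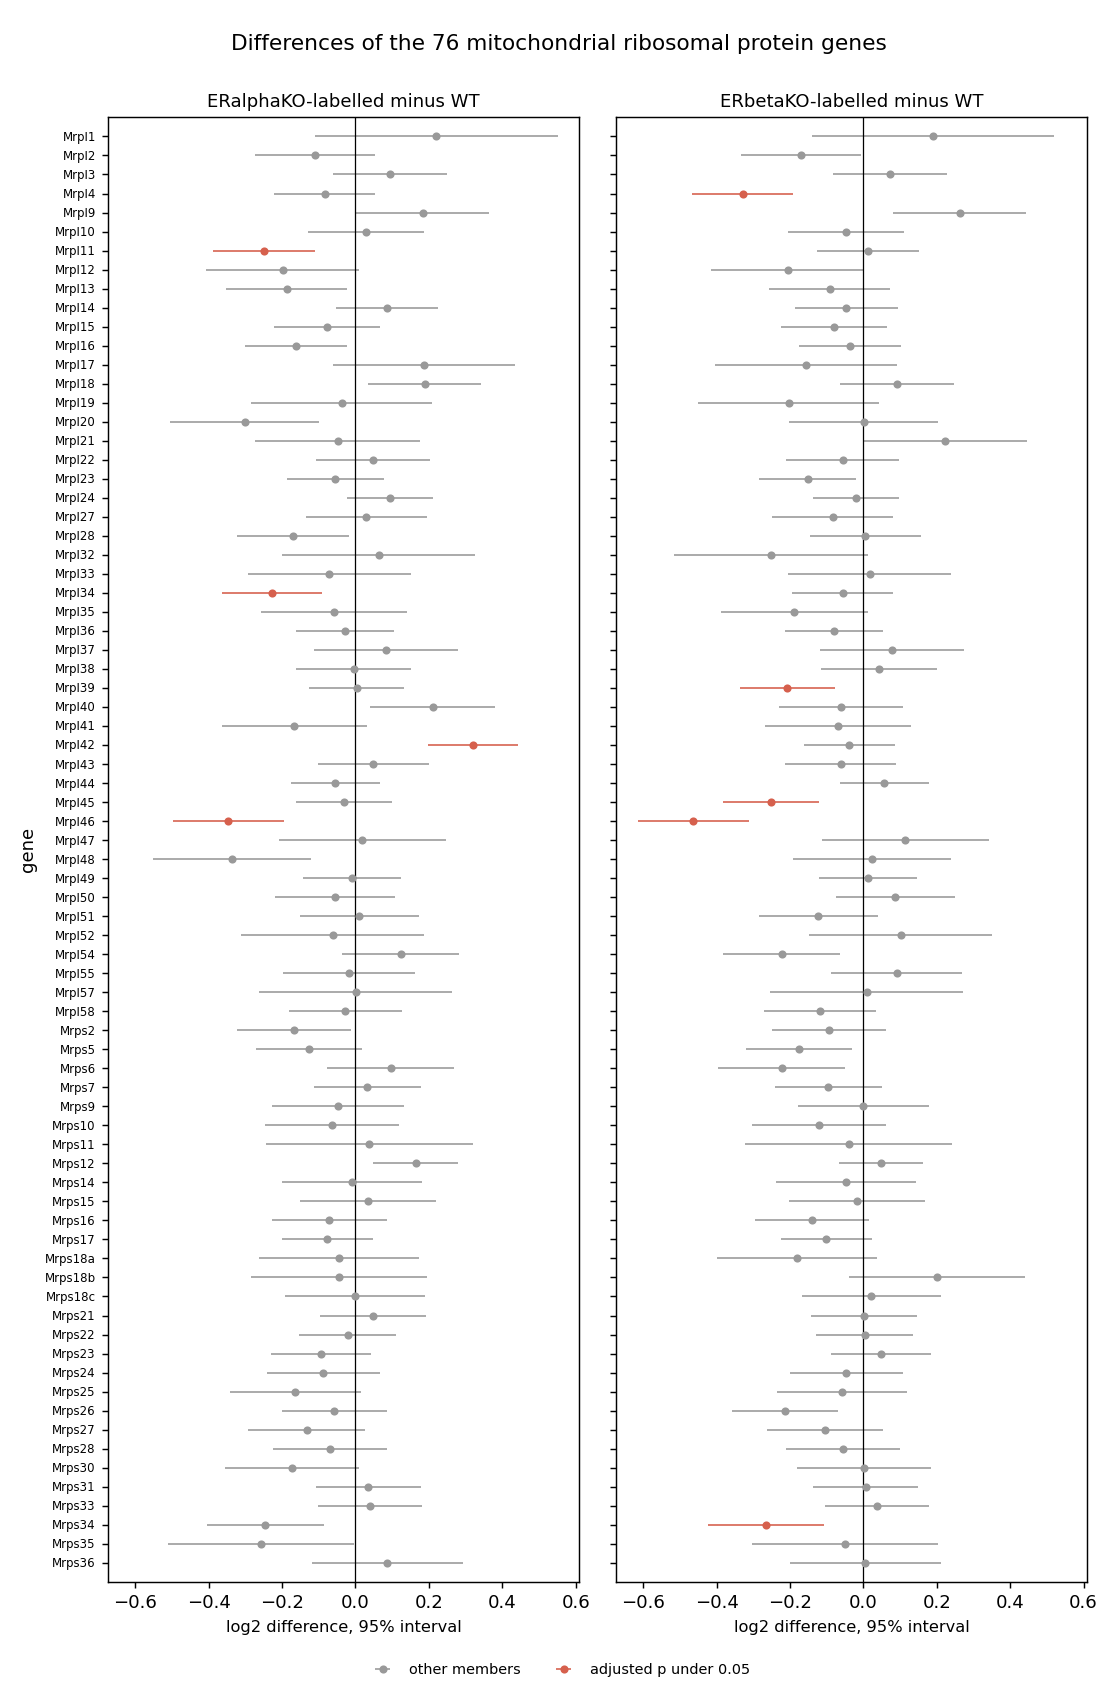
Log2 differences of the 76 members (rows, ordered by symbol) with 95% intervals, for ERalphaKO-labelled minus WT on the left and ERbetaKO-labelled minus WT on the right, 6 arrays per genotype. Red points mark the 4 and the 5 members past the adjusted threshold; Mrpl46 lies farthest left in both panels.

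By subunit, 49 members were counted with the large subunit, Mrps18a and Mrps30 included, and 27 with the small one. All other placements follow the symbol. In ERalphaKO-labelled brains all 4 called members were large-subunit genes (1 higher and 3 lower of 49) and none of the 27 small-subunit genes passed. That is 8.16% of the large subunit, where 6.70% of all genes tested were called. Mrps34, of the small subunit, lay just outside the threshold (adjusted p = 0.0600). The medians of the large and the small subunit were -0.028 and -0.048. In ERbetaKO-labelled brains 4 large-subunit genes and 1 small-subunit gene were lower, with medians of -0.047 and -0.048. These were 8.16% and 3.70% of the subunits, where 7.50% of all genes tested were called. Split by origin, 45 members were counted as having a bacterial counterpart and 31 as specific to mitochondria. Of the 3 relatives of bacterial S18, Mrps18c was placed in the first class and Mrps18a and Mrps18b in the second. In ERalphaKO-labelled brains 2 members of each class were called, and in ERbetaKO-labelled brains 1 of the first and 4 of the second. The shares of the 2 classes were 4.44% and 6.45% in ERalphaKO-labelled brains, and 2.22% and 12.9% in ERbetaKO-labelled brains. The difference between subunits or origins was not tested.

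The central protuberance is the crest of the large subunit that contacts the small one. In mammalian mitochondria it is built largely from proteins with no bacterial counterpart, among them those encoded by Mrpl46, Mrpl40 and Mrpl48. Mrpl46 had a lowest, median and highest signal of 871.7, 986.9 and 1089.6 in ERalphaKO-labelled arrays, of 744.7, 882.1 and 1090.6 in ERbetaKO-labelled arrays, and of 1096.8, 1257.7 and 1448.1 in WT arrays. Every knockout-labelled array lay below every WT array, by a narrow margin at the edge. The log2 difference was -0.35 ± 0.07 (SE; adjusted p = 0.0114) in ERalphaKO-labelled brains, or 0.787 of the WT level on the log2(signal + 63.63) scale. It was -0.46 ± 0.07 (adjusted p = 0.00225) in ERbetaKO-labelled brains, or 0.725 of WT. Between the knockout-labelled groups Mrpl46 was not called (log2 0.12, adjusted p = 0.274). Both calls held with each array left out in turn, with adjusted p of at most 0.0340 and 0.00693. The first was lost on the 11 arrays with Pcp2 at 500 or more (log2 -0.38, adjusted p = 0.0789), and the second with the Actb ratio described further on as a covariate (log2 -0.38, adjusted p = 0.163). Mrpl46 had 1 probe set.

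Mrpl46 starts close to another member. On chromosome 7 it runs on the minus strand, and Mrps11, a small-subunit protein with a bacterial counterpart, runs the other way from an annotated start 41 bases away. The stretches run from 120 bases before to 50 bases after each start. They are shown because only Mrpl46 of the pair was called lower in both knockout-labelled groups. They are taken from RefSeq, GRCm38.p6, with capitals for a YY1 motif (AAGATGGCG or its complement), and the pair was chosen after its values were seen. Mrpl46 is chr7:78783040-78783209 on the minus strand and Mrps11 is chr7:78783011-78783180 on the plus strand. The stretches overlap, and the YY1 match lies just past the end of the Mrpl46 stretch, downstream of its start. It is therefore near both starts, and its mark under Mrps11 alone comes from the window limits.
Mrpl46: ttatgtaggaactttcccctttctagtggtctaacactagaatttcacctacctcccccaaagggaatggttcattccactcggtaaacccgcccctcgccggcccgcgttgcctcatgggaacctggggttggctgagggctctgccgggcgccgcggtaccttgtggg
Mrps11: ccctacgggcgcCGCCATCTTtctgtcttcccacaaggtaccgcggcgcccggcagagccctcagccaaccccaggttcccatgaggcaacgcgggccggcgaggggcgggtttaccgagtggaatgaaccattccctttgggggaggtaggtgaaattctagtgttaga
Mrps11 had a lowest, median and highest signal of 452.8, 646.3 and 694.2 in ERalphaKO-labelled arrays, of 426.8, 561.3 and 756.8 in ERbetaKO-labelled arrays, and of 378.7, 646.8 and 689.1 in WT arrays. The 3 groups overlapped throughout. Its log2 differences were 0.04 ± 0.13 (adjusted p = 0.897) and -0.04 ± 0.13 (adjusted p = 0.880) against WT. Its 95% intervals were -0.24 to 0.32 and -0.32 to 0.24. Those of Mrpl46 were -0.50 to -0.19 and -0.61 to -0.31, so the intervals of the pair overlapped in both comparisons. Mrps11 had 2 probe sets, of which the brighter was used. After Mrpl1, Mrps11 had the widest spread of the family, with a residual SD of 0.25 on the log2 scale. Whether the pair differed was not tested.

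Mrpl40 had signals of 640.5, 736.3 and 858.1 (lowest, median, highest) in ERalphaKO-labelled arrays, 465.0, 611.4 and 675.7 in ERbetaKO-labelled arrays and 559.4, 628.6 and 666.5 in WT arrays. The ERalphaKO-labelled values sat mostly above both others, with overlap at the lower end. It was higher in ERalphaKO-labelled than in ERbetaKO-labelled brains (log2 0.27 ± 0.08, adjusted p = 0.0330), and did not pass against WT in either (log2 0.21 and -0.06, adjusted p = 0.121 and 0.672). Mrpl48 went the other way. Its signals were 738.2, 953.5 and 1048.6 in ERalphaKO-labelled arrays, 1023.4, 1171.6 and 1431.3 in ERbetaKO-labelled arrays and 976.1, 1187.0 and 1383.5 in WT arrays. The ERalphaKO-labelled group was low and overlapped the others at its top. Mrpl48 was lower in ERalphaKO-labelled than in ERbetaKO-labelled brains (log2 -0.36 ± 0.10, adjusted p = 0.0275). Against WT its log2 difference was -0.34 in ERalphaKO-labelled brains, just outside the threshold (adjusted p = 0.0564), and 0.02 in ERbetaKO-labelled brains. The direct calls were lost on leaving out any 1 of 7 arrays for Mrpl40 and of 6 for Mrpl48. The other probe sets of Mrpl48 differed. One of nearly the same mean signal (1062, against 1091 for the one used) gave a log2 difference of -0.07 between the knockout-labelled groups (unadjusted p = 0.339) and of 0.06 between ERalphaKO-labelled brains and WT (unadjusted p = 0.407). A dimmer one, with a mean signal of 521, gave -0.29 (unadjusted p = 0.0157) and -0.34 (unadjusted p = 0.00572). The fall of Mrpl48 therefore reached an unadjusted p under 0.05 through 2 of its 3 probe sets.

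**Figure D2:**
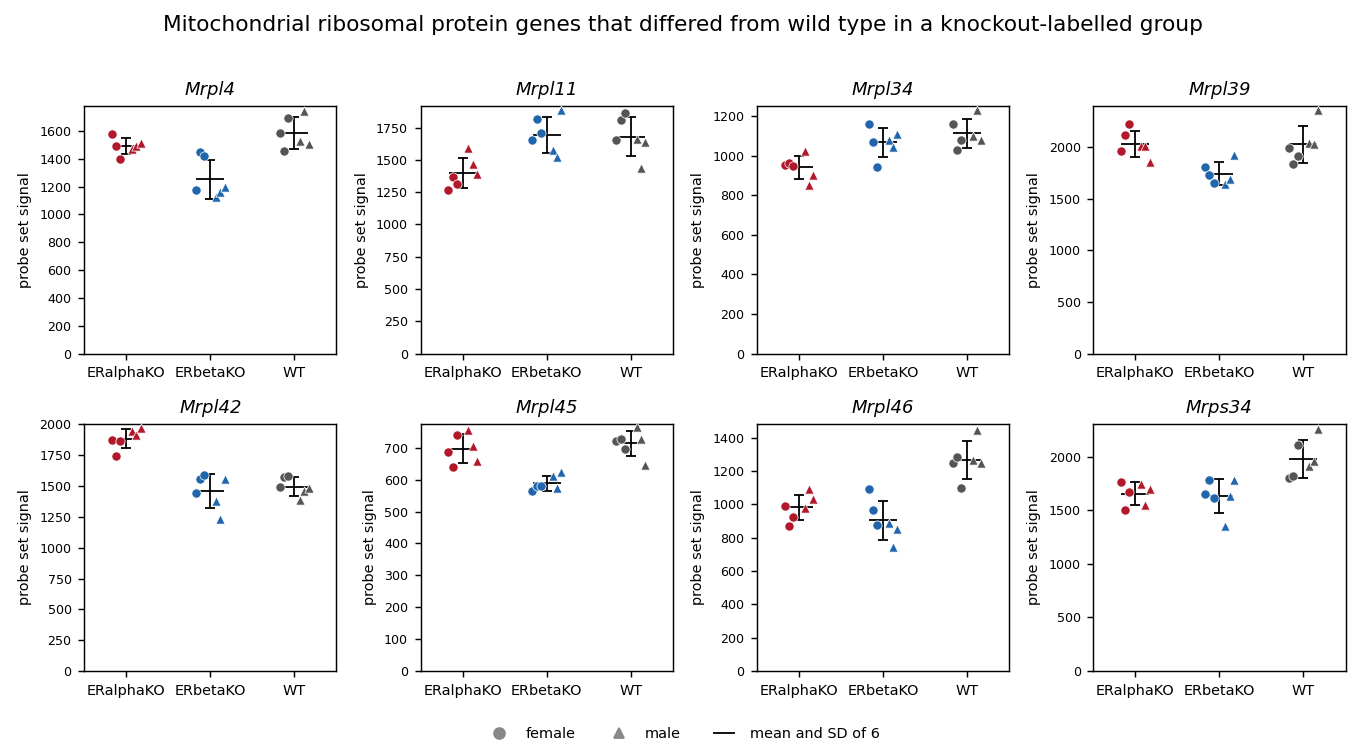
Probe set signal on each array (linear axis from 0) of the 8 members called against WT, in ERalphaKO-labelled, ERbetaKO-labelled and WT brains, with circles for females, triangles for males and bars for the mean and SD of 6 arrays. Mrpl46 was below WT in both knockout-labelled groups, Mrpl42 was above WT in ERalphaKO-labelled arrays, and Mrpl4 and Mrpl45 were below WT in ERbetaKO-labelled arrays.

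At the exit tunnel, Mrpl4 encodes a relative of bacterial L4 that lines the tunnel wall, and Mrpl45 a mitochondria-specific protein near the tunnel's mouth that holds the ribosome to the inner membrane. Mrpl4 had a lowest, median and highest signal of 1401.8, 1491.6 and 1581.6 in ERalphaKO-labelled arrays, of 1129.1, 1183.5 and 1448.7 in ERbetaKO-labelled arrays, and of 1456.3, 1558.2 and 1746.6 in WT arrays. All ERbetaKO-labelled values lay below all WT values, while the ERalphaKO-labelled ones overlapped both. The log2 difference from WT was -0.33 ± 0.06 in ERbetaKO-labelled brains (adjusted p = 0.00797) and -0.08 in ERalphaKO-labelled brains (adjusted p = 0.471). The direct difference of the knockout-labelled groups was 0.24 ± 0.06 (adjusted p = 0.0210), a call lost without ERalphaKO-labelled female 1 (adjusted p = 0.0538).

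Mrpl45 gave 639.2, 696.4 and 756.1 in ERalphaKO-labelled arrays, 563.4, 579.1 and 623.2 in ERbetaKO-labelled arrays and 646.3, 723.4 and 764.7 in WT arrays. The ERbetaKO-labelled arrays lay below all the others. Its log2 difference from WT was -0.25 ± 0.06 in ERbetaKO-labelled brains (adjusted p = 0.0228), and -0.03 in ERalphaKO-labelled brains (adjusted p = 0.811). ERalphaKO-labelled minus ERbetaKO-labelled gave 0.22 ± 0.06 (adjusted p = 0.0257). The call against WT was lost without WT male 1 or without ERbetaKO-labelled male 2, with adjusted p of at most 0.0550, and the direct call without any 1 of 5 arrays. Mrpl4 and Mrpl45 each had 1 probe set. When the Actb ratio entered the fit, the falls in ERbetaKO-labelled brains were -0.44 (adjusted p = 0.0792) for Mrpl4 and -0.27 (adjusted p = 0.262) for Mrpl45.

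Among the large-subunit proteins of bacterial descent, Mrpl11 sits at the base of the stalk where translation factors bind, and Mrpl20 and Mrpl34 are relatives of bacterial L20 and L34. Mrpl11 had a lowest, median and highest signal of 1269.4, 1379.6 and 1596.0 in ERalphaKO-labelled arrays, of 1520.6, 1681.9 and 1884.6 in ERbetaKO-labelled arrays, and of 1440.6, 1659.9 and 1866.8 in WT arrays. The ERalphaKO-labelled group was low, with overlap at its top. Mrpl11 was lower in ERalphaKO-labelled brains than in WT (log2 -0.25 ± 0.07, adjusted p = 0.0339) and than in ERbetaKO-labelled brains (log2 -0.26 ± 0.07, adjusted p = 0.0167). Its 3 dimmer probe sets had the same sign, none at an unadjusted p under 0.05 against WT. The call against WT was lost on leaving out any 1 of 9 of the 12 arrays compared, and no single array ended the call between the knockout-labelled groups.

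Mrpl34 had signals of 853.0, 950.6 and 1022.8 in ERalphaKO-labelled arrays, 944.5, 1073.2 and 1158.5 in ERbetaKO-labelled arrays and 1027.9, 1088.3 and 1229.9 in WT arrays. Every ERalphaKO-labelled value lay below every WT value. The log2 difference was -0.23 ± 0.06 (adjusted p = 0.0461) in ERalphaKO-labelled brains, and -0.06 (adjusted p = 0.623) in ERbetaKO-labelled brains. It passed narrowly, and the call was lost on leaving out any 1 of 11 of the 12 arrays. Mrpl20 gave 1295.0, 1469.1 and 1784.1 in ERalphaKO-labelled arrays, 1585.5, 1822.8 and 2318.5 in ERbetaKO-labelled arrays and 1491.9, 1884.9 and 2013.3 in WT arrays. It was called only between the knockout-labelled groups (log2 -0.30 ± 0.10, adjusted p = 0.0431), a call lost without any 1 of 9 arrays. Against WT its log2 difference was -0.30 in ERalphaKO-labelled brains (adjusted p = 0.0680) and 0.0013 in ERbetaKO-labelled brains.

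Read through the probe sets used, Mrpl42 was the only member called higher in either comparison with WT. It encodes a mitochondria-specific protein of the large subunit. Its lowest, median and highest signals were 1747.8, 1890.6 and 1967.8 in ERalphaKO-labelled arrays, 1235.2, 1499.3 and 1585.8 in ERbetaKO-labelled arrays, and 1383.3, 1487.7 and 1581.9 in WT arrays. Every ERalphaKO-labelled array lay above all 12 others. The log2 difference was 0.32 ± 0.06 from WT (adjusted p = 0.00583) and 0.36 ± 0.06 from ERbetaKO-labelled brains (adjusted p = 0.00253), and no left-out array ended either call. In ERbetaKO-labelled brains it was -0.04 from WT (adjusted p = 0.721). On the arrays with Pcp2 at 500 or more the difference from WT was 0.35 (adjusted p = 0.0865). A second Mrpl42 probe set, with a mean signal of 45.0, under the pseudocount of 63.63, gave a log2 difference of -0.30 (unadjusted p = 0.121), and the mean of both probe sets gave 0.012 (adjusted p = 0.965). The rise of Mrpl42 therefore rests on its brighter probe set. A probe set of Mrpl3 that was not the one used, described further on, rose more in ERalphaKO-labelled brains (log2 0.47).

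The promoters of Mrpl42 and Mrpl34 are shown because these members, of opposite direction in ERalphaKO-labelled brains, each hold a motif near the start. Capitals mark a YY1 motif in Mrpl42, at chr10:95501900-95502069 on the minus strand, and an ETS motif (CCGGAAG) in Mrpl34, at chr8:71464806-71464975 on the plus strand (RefSeq, GRCm38.p6, 120 bases before to 50 after the start).
Mrpl42: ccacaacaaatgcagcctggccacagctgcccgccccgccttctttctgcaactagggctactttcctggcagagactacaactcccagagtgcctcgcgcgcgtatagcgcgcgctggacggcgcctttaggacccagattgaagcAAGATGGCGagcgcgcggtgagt
Mrpl34: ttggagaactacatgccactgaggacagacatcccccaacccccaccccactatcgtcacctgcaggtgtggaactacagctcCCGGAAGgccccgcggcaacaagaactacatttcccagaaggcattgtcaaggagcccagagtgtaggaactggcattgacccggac
The YY1 motif of Mrpl42 lies after the annotated start and the ETS motif of Mrpl34 before it. A match is a description of the letters and not of binding.

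Mrpl39 encodes a mitochondria-specific large-subunit protein that resembles threonyl-tRNA synthetases, and Mrpl54 another mitochondria-specific protein of that subunit. Mrpl39 had signals of 1851.8, 2011.0 and 2219.6 in ERalphaKO-labelled arrays, 1643.0, 1710.9 and 1926.8 in ERbetaKO-labelled arrays and 1830.5, 2008.6 and 2357.8 in WT arrays. The ERbetaKO-labelled group was low with overlap at its top. Its log2 difference from WT was -0.21 ± 0.06 (adjusted p = 0.0483) in ERbetaKO-labelled brains and 0.0030 (adjusted p = 0.986) in ERalphaKO-labelled brains, and between the knockout-labelled groups it was 0.21 ± 0.06 (adjusted p = 0.0304). The first call was lost without any 1 of 10 arrays and the second without any 1 of 7. A dimmer Mrpl39 probe set gave -0.08 from WT in ERbetaKO-labelled brains (unadjusted p = 0.315).

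Mrpl54 gave 439.9, 494.3 and 592.6 in ERalphaKO-labelled arrays, 325.4, 385.2 and 467.0 in ERbetaKO-labelled arrays and 423.7, 460.1 and 506.8 in WT arrays. The ERalphaKO-labelled values were the highest and the ERbetaKO-labelled values the lowest on average, with WT between them. It was higher in ERalphaKO-labelled than in ERbetaKO-labelled brains by 0.35 ± 0.08 (adjusted p = 0.00893), with no call lost to a single array. A second Mrpl54 probe set, with a mean signal of 17.1, gave -0.06 (unadjusted p = 0.332). Against WT it did not pass in either group (log2 0.12 and -0.22, adjusted p = 0.344 and 0.0796).

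In the small subunit, Mrps34 is a mitochondria-specific protein and Mrps6 a relative of bacterial S6. Mrps34 had a lowest, median and highest signal of 1501.2, 1682.4 and 1760.6 in ERalphaKO-labelled arrays, of 1348.0, 1637.1 and 1784.0 in ERbetaKO-labelled arrays, and of 1795.4, 1933.9 and 2258.9 in WT arrays. All 12 knockout-labelled values lay below all WT values. The log2 difference was -0.25 ± 0.08 (adjusted p = 0.0600) in ERalphaKO-labelled brains and -0.27 ± 0.08 (adjusted p = 0.0421) in ERbetaKO-labelled brains, on either side of the threshold. The ERbetaKO call was lost without any 1 of 10 arrays. ERalphaKO-labelled and ERbetaKO-labelled brains differed by 0.02 (adjusted p = 0.871).

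Mrps6 gave 1133.2, 1316.4 and 1522.3 in ERalphaKO-labelled arrays, 899.6, 1028.3 and 1312.1 in ERbetaKO-labelled arrays and 1062.2, 1238.0 and 1439.2 in WT arrays. The groups overlapped, with 5 of 6 ERbetaKO-labelled values below every ERalphaKO-labelled one. It was higher in ERalphaKO-labelled than in ERbetaKO-labelled brains by 0.32 ± 0.08 (adjusted p = 0.0181), and this call held under every alternative and left-out array tried, with an adjusted p of at most 0.0489. Its second probe set gave 0.37 (unadjusted p = 0.00117). Against WT it did not pass (log2 0.10 and -0.22, adjusted p = 0.513 and 0.105).

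**Figure D3:**
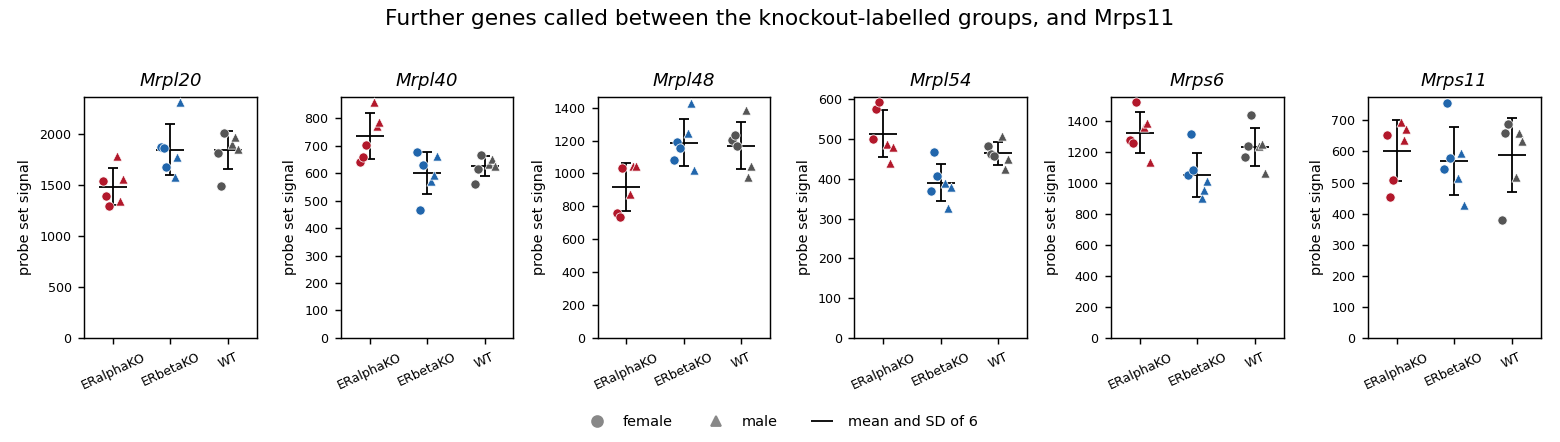
Probe set signal on each array (linear axis from 0) of the 5 members called only between the knockout-labelled groups, and of Mrps11, in ERalphaKO-labelled, ERbetaKO-labelled and WT brains, with circles for females, triangles for males and bars for the mean and SD of 6 arrays. Mrpl40, Mrpl54 and Mrps6 averaged higher, and Mrpl20 and Mrpl48 lower, in ERalphaKO-labelled than in ERbetaKO-labelled arrays, while Mrps11 overlapped in all 3 groups.

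Counting members whose 6 values did not overlap with the 6 WT values gave a similar picture. In ERalphaKO-labelled arrays Mrpl42 lay wholly above WT, and Mrpl16, Mrpl34, Mrpl46 and Mrps34 wholly below, while 4.65% of all genes were wholly on one side. In ERbetaKO-labelled arrays Mrpl4, Mrpl45, Mrpl46 and Mrps34 lay wholly below, against 4.06% of all genes. Mrpl14, Mrpl42 and Mrpl45 were wholly higher in ERalphaKO-labelled than in ERbetaKO-labelled arrays, where 5.85% of all genes were separated. Mrpl16 and Mrpl14, relatives of bacterial L16 and L14, were separated by small steps. Mrpl16 had a log2 difference of -0.16 (adjusted p = 0.147) from WT and Mrpl14 one of 0.13 (adjusted p = 0.179) between the knockout-labelled groups.

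The 3 largest uncalled rises and falls of each comparison, where not described above, did not pass the threshold. In ERalphaKO-labelled brains Mrpl1 stood at 0.22 ± 0.16 (adjusted p = 0.420), Mrpl18 at 0.19 ± 0.07 (adjusted p = 0.127) and Mrps35 at -0.26 ± 0.12 (adjusted p = 0.206) from WT. Mrpl1 had the widest residual SD of the family, 0.30. Its 6 ERalphaKO-labelled values ran between 348.8 and 660.5, and its WT values between 322.1 and 561.6. In ERbetaKO-labelled brains Mrpl9 stood at 0.26 ± 0.09 (adjusted p = 0.0703), Mrpl21 at 0.22 ± 0.11 (adjusted p = 0.199), Mrps18b at 0.20 ± 0.11 (adjusted p = 0.281) and Mrpl32 at -0.25 ± 0.12 (adjusted p = 0.217). Between the knockout-labelled groups Mrpl17 stood at 0.34 ± 0.12 (adjusted p = 0.0573), Mrpl32 at 0.31 ± 0.12 (adjusted p = 0.0927), Mrpl19 at 0.17 ± 0.12 (adjusted p = 0.343) and Mrpl21 at -0.27 ± 0.11 (adjusted p = 0.0887). Mrps18b and Mrps35 stood at -0.25 and -0.21 there (adjusted p = 0.148 and 0.244).

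The paralogs Mrps18a, Mrps18b and Mrps18c, all relatives of bacterial S18, were not called in any comparison. Mrps18a sits in the large subunit and had signals of 1326.9, 1402.1 and 1714.5 in ERalphaKO-labelled arrays, 1146.5, 1306.3 and 1634.0 in ERbetaKO-labelled arrays and 1316.8, 1383.8 and 2190.8 in WT arrays. Mrps18c, in the small subunit, stood at -0.0012 from WT in the ERalphaKO-labelled group and at 0.02 in the ERbetaKO-labelled group, and Mrps18b at -0.04 in the ERalphaKO-labelled group and at 0.20 in the ERbetaKO-labelled group.

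The brightest probe sets of the family were those of Mrpl41, Mrpl44, Mrpl27 and Mrpl39, and the dimmest those of Mrpl33, Mrps27, Mrps18b and Mrpl37. A probe set's signal depends on its probes as well as on the transcript, so these ranks do not order the genes by transcript amount. Mrpl27 had a median of 2253.0 in ERalphaKO-labelled arrays, 2131.4 in ERbetaKO-labelled arrays and 2278.6 in WT arrays. The medians of Mrpl33 were 284.8 in ERalphaKO-labelled, 290.3 in ERbetaKO-labelled and 314.8 in WT arrays. Neither passed the test against WT (adjusted p of 0.858 and 0.535 for Mrpl27, and of 0.727 and 0.938 for Mrpl33). Mrps27 stood at -0.13 and -0.10 and Mrpl37 at 0.08 and 0.08 from WT, with adjusted p of at least 0.305.

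In 34 members there was 1 probe set to read the gene by, and in 42 there were several, up to 8. In 3 members the probe sets disagreed, meaning that they had opposite signs at an unadjusted p under 0.05 in at least 1 comparison. Mrpl17 was higher in ERalphaKO-labelled than in ERbetaKO-labelled brains through its brightest probe set (log2 0.34), and lower through its second one (log2 -0.44, unadjusted p = 0.00358), which had a mean signal of 314.5. For Mrpl47 the brightest probe set stood at -0.10 in that comparison, and the dimmer ones, of mean signal 123.0 and 71.2, at -0.48 and 0.75. For Mrpl3 the brightest stood at 0.02 and the others, of mean signal 642.6, 455.6 and 55.2, at 0.20, -0.19 and 0.34. In ERalphaKO-labelled brains against WT, the Mrpl3 probe set of mean signal 642.6 rose by log2 0.47 (limma unadjusted p = 4.9e-05). There the brightest stood at 0.09 and the one of mean signal 455.6 at -0.08. The direction of Mrpl17, Mrpl47 and Mrpl3 therefore depends on the probe set. The dimmest ones of Mrpl47 and Mrpl3 lie near or under the pseudocount of 63.63, and the cause was not tested.

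The family's overall level on each array was taken as the mean log2 signal of the 76 members minus that of all genes tested. It was 0.376 to 0.454 in ERalphaKO-labelled arrays, 0.268 to 0.431 in ERbetaKO-labelled arrays and 0.396 to 0.480 in WT arrays. The lowest levels were those of ERbetaKO-labelled males 2 and 1, at 0.268 and 0.310, and the groups otherwise overlapped. The 3' over 5' signal ratio of the Actb control probe sets, which rises as RNA is shortened, was 1.15 to 1.37 in ERalphaKO-labelled arrays, 1.34 to 1.84 in ERbetaKO-labelled arrays and 1.17 to 1.23 in WT arrays. Every ERbetaKO-labelled array lay above every WT array, so that ratio and that group cannot be told apart. With the ratio as a covariate, 0 members were called in ERbetaKO-labelled brains and 3 in ERalphaKO-labelled brains, while 122 and 423 of all genes were. The summed signal of 4 endothelial markers was also lower in both knockout-labelled groups, at 3340 to 3753 in ERalphaKO-labelled and 3444 to 3833 in ERbetaKO-labelled arrays against 4023 to 4531 in WT arrays, with Cldn5 called lower in both (1 of 4). That of 6 astrocyte markers was 29944 to 36310 in ERalphaKO-labelled and 28964 to 42234 in ERbetaKO-labelled arrays against 37324 to 44116 in WT arrays. Of these, Aldoc was called lower in ERalphaKO-labelled brains (log2 -0.49, adjusted p = 0.0251), and Gfap (log2 -1.23, adjusted p = 0.000184) and Slc7a10 (log2 -0.47, adjusted p = 0.0129) in ERbetaKO-labelled brains. Not all 6 fell. Slc1a3 and Aqp4 stood at 0.0073 and 0.02 in ERalphaKO-labelled brains, and Slc1a2 at 0.06 and Slc1a3 at -0.03 in ERbetaKO-labelled brains. A sum follows its brightest genes most. The sum of 6 microglial markers was 8400 to 10366 in ERalphaKO-labelled, 8433 to 11447 in ERbetaKO-labelled and 8847 to 13617 in WT arrays. C1qa (log2 -0.53, adjusted p = 0.0201) and Ctss (log2 -0.33, adjusted p = 0.0244) were lower in ERalphaKO-labelled brains and Cx3cr1 (log2 -0.52, adjusted p = 0.0275) in ERbetaKO-labelled brains. Cx3cr1 stood at 0.12 in ERalphaKO-labelled brains, and Ctss at -0.03 and Csf1r at -0.01 in ERbetaKO-labelled brains, none of them called. The part of these markers in the members' differences was not tested. On the 11 arrays with Pcp2 at 500 or more, 0 members were called in ERalphaKO-labelled brains, 1 in ERbetaKO-labelled brains and 5 between the knockout-labelled groups, where 75, 235 and 1459 of all genes were called.

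**Figure D4:**
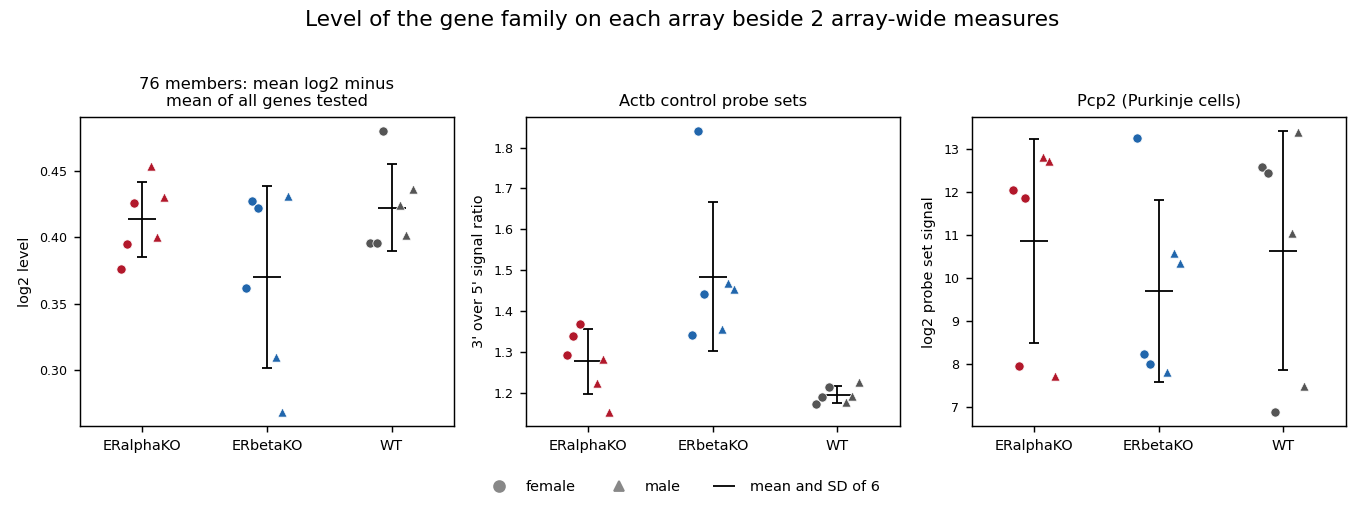
Left, mean log2 signal of the 76 members minus that of all genes tested; middle, 3' over 5' signal ratio of the Actb control probe sets; right, log2 signal of Pcp2, each per array in ERalphaKO-labelled, ERbetaKO-labelled and WT brains, with circles for females, triangles for males and bars for the mean and SD of 6 arrays. The family level was lowest on ERbetaKO-labelled males 2 and 1 (0.268 and 0.310), and the Actb ratio of all ERbetaKO-labelled arrays was above that of all WT arrays.

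Members moved little and somewhat together. After group means were removed, the median residual SD of a member was 0.12 on the log2 scale, against 0.18 over all genes tested, and the median 95% half-width of a genotype difference was 0.16, against 0.22. The median pairwise correlation of those residuals over the 18 arrays was 0.130 among members, 0.189 within the large subunit, 0.072 within the small subunit and 0.097 between subunits. It was 0.048 between members and other mitochondrial translation genes and 0.004 over all genes. The arrays share RNA quality and tissue content, and these values are descriptive.

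Sex made no difference that passed the test. Between females and males, averaged over genotypes, 0 members were called by limma (2 at an unadjusted p under 0.05), where 0.0306% of all genes were. Mrpl36 and Mrpl54 had the smallest p, with female minus male log2 differences of 0.14 ± 0.05 and 0.13 ± 0.06 (adjusted p = 0.974 for both). The test of whether a knockout difference depended on sex called 0 members and 0.00% of all genes in each knockout-labelled group. At an unadjusted p under 0.05 there were 5 for ERalphaKO-labelled and 1 for ERbetaKO-labelled brains. For Mrpl46 the fall in ERbetaKO-labelled brains was smaller in females by 0.34 ± 0.14 (adjusted p = 1.00). Over the family 45 of 76 members had the same sign in both sexes, in each of the knockout-labelled groups.

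The ribosome works with factors for initiation, elongation, assembly and messenger stability. A list of 63 genes that are not members held these, mitochondrial transcription genes, tRNA synthetases and further ribosomal proteins. Of them 55 were tested. The shares called were 1.82% and 1.82% in ERalphaKO-labelled and ERbetaKO-labelled brains against WT, and 5.45% between the knockout-labelled groups. Those of all genes tested were larger, at 6.70%, 7.50% and 15.4%. In ERalphaKO-labelled brains 1 was called: Mtg1, a GTPase of mitochondrial ribosome assembly, averaged 567 ± 46.9 in ERalphaKO-labelled and 739 ± 118 in WT arrays (SD, n = 6 each; log2 -0.34, adjusted p = 0.0294). In ERbetaKO-labelled brains 1 was called: Slirp, the partner of Lrpprc in keeping mitochondrial messengers stable, averaged 1087 ± 85.6 in ERbetaKO-labelled and 1295 ± 86.6 in WT arrays (SD, n = 6 each; log2 -0.24, adjusted p = 0.0366). Between the knockout-labelled groups Slirp was higher in ERalphaKO-labelled brains (log2 0.24, adjusted p = 0.0261), as were Dap3 and Gadd45gip1, which encode a small-subunit and a large-subunit protein of the mitochondrial ribosome outside the Mrp naming. Dap3 averaged 1641 ± 133 in the ERalphaKO-labelled arrays and 1311 ± 153 in the ERbetaKO-labelled ones (SD, n = 6 each; log2 0.31, adjusted p = 0.0160). Gadd45gip1 averaged 655 ± 56.0 in the ERalphaKO-labelled arrays and 499 ± 95.7 in the ERbetaKO-labelled ones (log2 0.37, adjusted p = 0.0279). The medians of the 55 genes were -0.029, -0.056 and 0.029 in the 3 comparisons.

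Of 11 transcription factors and coactivators known to act on nuclear genes for mitochondria, 10 were tested and limma called 0 in each comparison. At an unadjusted p under 0.05 there were 3, 2 and 3, where 3044, 3320 and 4200 of all 13072 genes tested were. Esrrb, an estrogen-related receptor, stood at -0.41 (adjusted p = 0.0599) and Yy1 at -0.19 (adjusted p = 0.0777) in ERalphaKO-labelled brains. Gabpb1, a subunit of the ETS factor GABP, stood at -0.20 (adjusted p = 0.110) and Esrra, another estrogen-related receptor, at -0.23 (adjusted p = 0.113) in ERbetaKO-labelled brains. Between the knockout-labelled groups Esrra stood at 0.25 (adjusted p = 0.0634) and the coactivator Pprc1 at 0.22 (adjusted p = 0.105).

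RefSeq promoter windows of 300 bases (GRCm38.p6, 250 before to 50 after an annotated start) were given for 67 of the 76 members, with 73 windows in all. Motifs were searched on both strands as exact letters. An ETS motif, CCGGAAG, stood in 34.2% of member windows, against 8.86% of all 32851 windows and 15.1% of those of genes tested. An NRF-1 motif, GCATGCGC, stood in 11.0%, against 2.71% and 4.68%. A YY1 motif, AAGATGGCG, stood in 11.0%, against 1.40% and 2.58%. An estrogen-related receptor motif, CAAGGTCA, stood in 2 windows (2.74%, against 1.56% and 1.17%), those of Mrps15 and Mrps21. The palindromic estrogen response element, GGTCA and its complement 3 bases apart, was in 0 member windows and in 0.07% of all windows. Within 100 bases of the start lay 26 of 29 ETS, 10 of 14 NRF-1 and 7 of 8 YY1 matches. The windows' median GC content was 58.7% for members, 52.7% for all and 60.3% for genes tested. Of the 13 called members, Mrpl34 and Mrpl48 held an ETS, Mrpl39 an NRF-1 and Mrpl42 a YY1 motif. The windows of Mrpl46, Mrpl45, Mrpl40, Mrpl11, Mrpl20 and Mrps6 held none of the motifs searched. That of Mrpl46 ends just short of the YY1 match counted for Mrps11.

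**Figure D5:**
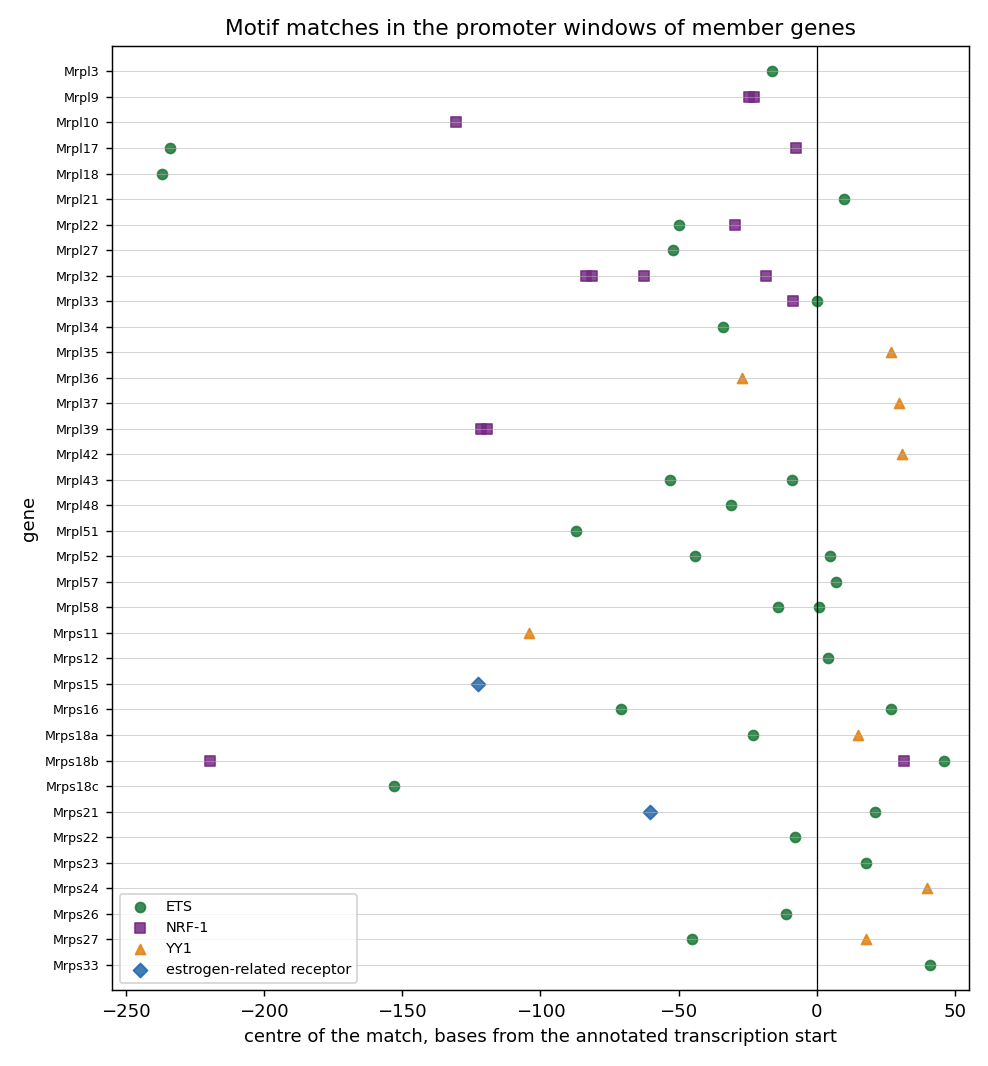
Distance from the annotated start (bases, 0 at the start, negative before it) to the centre of each motif match in the promoter windows of members with a match; symbols mark the motif. Of the 29 ETS matches, 26 lay within 100 bases of the start.

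Many members lie close to another gene. For 45 of 76 a protein-coding neighbour overlapped or lay within 1000 bases, with overlap in 19. Of 47 neighbours tested, 2 were called in brains with the ERalphaKO label and 5 in those with the ERbetaKO label. Of all genes tested, 6.70% and 7.50% were called. The member Mrpl46, as the neighbour of Mrps11, is in both counts. The pair with the largest contrast, chosen after its values were seen, was Mrpl44 and Wdfy1, which overlap on the annotation. Mrpl44 encodes a large-subunit protein with an RNase III-like fold, and Wdfy1 a protein of early endosomes. Wdfy1 had a lowest, median and highest signal of 265.1, 315.0 and 419.3 in ERalphaKO-labelled arrays, of 156.7, 214.8 and 577.1 in ERbetaKO-labelled arrays, and of 787.7, 879.1 and 1183.6 in WT arrays. Its log2 differences from WT were -1.36 (adjusted p = 0.00361) and -1.57 (adjusted p = 0.00152). Mrpl44 had 2138.3, 2170.0 and 2335.9 in ERalphaKO-labelled arrays, 2080.6, 2400.5 and 2642.8 in ERbetaKO-labelled arrays, and 2106.3, 2303.6 and 2375.3 in WT arrays. The groups overlapped, and its log2 differences were -0.05 ± 0.06 and 0.06 ± 0.06 (adjusted p = 0.613 and 0.570), so the fall of Wdfy1 was not mirrored in the signal of Mrpl44.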

How the data were processed

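The authors deposited probe set intensities of 18 Affymetrix arrays. The submitters' processing notes name MAS5, and its version is not given in the sources used here. Each deposited column had been scaled so that its 45101 values had a 2% trimmed mean of 500. Detection calls were not part of the table, and precision is limited by the number of arrays.

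The 64 controls were not tested, and those of Actb gave the 3' over 5' ratio. Of the other probe sets 34945 had 1 gene symbol, 932 several and 9160 none. Only the first kind named genes, with symbols updated to RefSeq (GRCm38.p6). Signals were transformed as log2(signal + 63.63), the pseudocount being their 25th percentile, which understates changes of weak genes. Genes whose brightest probe set reached a mean log2 level of 7.58, the 40th percentile, were tested. Means of the 6 genotype and sex groups were fitted to all 18 arrays with limma 3.58.1 (R 4.3.3, intensity trend), so all p-values for genes are limma's, adjusted over 13072 genes (Benjamini-Hochberg) at 0.05. Genotype differences average both sexes. The fit was tested on simulated data. Figures were drawn with matplotlib 3.10.9.

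The members, lists and tests were chosen with earlier results of these data known. Named members are all those called, the 3 largest uncalled rises and falls per comparison, the 4 brightest and 4 dimmest, the 2 of smallest p for sex and each interaction, members with disagreeing probe sets, the Mrps18 paralogs, and pairs marked in the text as picked after seeing values. Of the mitochondrial translation and regulator genes, every called gene is named, or else the 2 of smallest p. Of the cell type markers, those called against WT are named, with some uncalled ones. Replicate numbers did not pair the arrays: of 18 same-numbered pairs 6 had a residual correlation over 0.1 (range -0.402 to 0.432). Alternatives were other pseudocounts, scalings, filters and variance models, all probe sets, only the groups compared, covariates, arrays with Pcp2 of 500 or more, a block for the replicate number, and leaving out each array.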

Additional observations from a re-analysis of the deposited data

Results flagged for a closer look

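Of 99 sets of 6 arrays of 1 genotype examined for the 33 named members, 5 held an array far from the other 5, where chance gives about 1 in 20. Mrpl10 had a signal of 1215.4 on ERalphaKO-labelled male 1, against 1473.1 to 1626.1 on the others of that group. Mrps34 had 1348.0 on ERbetaKO-labelled male 1, against 1617.1 to 1784.0. In WT, Mrpl19 had 683.6 on female 1, against 727.7 to 750.9, Mrpl20 had 1491.9 on female 2, against 1814.7 to 2013.3, and Mrpl44 had 2106.3 on male 1, against 2273.8 to 2375.3. All 5 were low values, on 5 different arrays.

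Mrpl41, read through the brightest of its 3 probe sets, had measured differences of opposite sign in the sexes of ERalphaKO-labelled brains. It was the member with the smallest p for this interaction, and the share of all genes separated like it was not counted. Its log2 difference from WT was -0.489 in females and 0.155 in males, with every ERalphaKO-labelled female below all WT females and every ERalphaKO-labelled male above all WT males. The difference between the sexes was -0.643 ± 0.19 (SE), and its test did not pass over all genes (limma adjusted p = 0.855).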

How the results depend on the processing

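No named member reversed a called difference under the 14 alternatives or the 18 fits that each left out 1 array. The number of members called moved more. For ERalphaKO-labelled against WT (4 called) it was 8 with array weights, 7 with a cerebellar marker score as covariate, 1 with the mean of all probe sets, 0 on arrays with Pcp2 of 500 or more and 2 with the replicate block, and 2 to 7 with an array left out. It was 2 without ERalphaKO-labelled female 1 or 2 or male 2 or 3, or WT female 3 or male 1 or 3, and 7 without ERbetaKO-labelled male 3. For ERbetaKO-labelled against WT (5 called) it was 0 with the Actb ratio as covariate, 13 with median scaling, 3 without the intensity trend, 1 on arrays with Pcp2 of 500 or more and 3 with only the groups compared, and 2 to 6 with an array left out. It was 2 without ERbetaKO-labelled male 2, and 3 without ERalphaKO-labelled male 1, ERbetaKO-labelled female 3 or male 1, WT female 3 or any WT male. For ERalphaKO-labelled against ERbetaKO-labelled (10 called) it was 5 with the Actb ratio, 5 on arrays with Pcp2 of 500 or more, 15 with median scaling or array weights, and 5 to 10 with an array left out, being 5 without ERalphaKO-labelled female 1 or ERbetaKO-labelled male 2 and 6 without ERalphaKO-labelled male 1 or 2.

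With median scaling the members' median was -0.17 in ERbetaKO-labelled against WT and 0.14 in ERalphaKO-labelled against ERbetaKO-labelled brains, with all genes at -0.12 and 0.088. With an array left out the medians ran from -0.0477 to -0.0164, from -0.0704 to -0.0275 and from 0.0095 to 0.049 in the 3 comparisons. Over all genes the calls fell to 75, 235 and 1459 on arrays with Pcp2 of 500 or more and to 423, 122 and 756 with the Actb ratio, against 876, 980 and 2010. Array weights gave 1559, 1547 and 3827, median scaling 461, 1868 and 2425, and the cerebellar score 1490 in ERalphaKO-labelled brains. The mean of all probe sets gave 622 in ERalphaKO-labelled brains. In ERbetaKO-labelled brains there were 920 without the intensity trend and 701 with only the groups compared. All-gene counts with an array left out are not given here, so whether those ranges are particular to the members cannot be told. The replicate numbers do not pair the arrays, and the block gave 914, 894 and 1968. Fewer arrays enter the fit with Pcp2 of 500 or more; for the other changes the cause was not tested. Sex and the interactions called 0 members in every fit run.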
